A study of Mus musculus with 29 samples.

Results

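Cytosolic ribosomal protein genes encode the protein part of the large and small subunits of the ribosome. Members were the mouse genes named Rpl or Rps followed by a number, with at most the suffix a, x, l or l1. Rplp0, Rplp1, Rplp2 and Rpsa were members too. Rps6k kinases, Rps19bp1, pseudogenes and mitochondrial ribosomal proteins were left out. The amygdala table held 64 such genes among 9872, 38 of the large and 26 of the small subunit. The medial prefrontal cortex table held 16 among 6080, 11 large and 5 small, and all 16 were also in the amygdala table. The GENCODE M21 annotation lists 82 genes under the same rule, and the 18 without an amygdala row, among them Rpl11, Rplp1, Rps2 and Rps27, were not analysed here.

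RNA came from cells sorted out of dissociated amygdala or medial prefrontal cortex of Thy1-YFP mice (B6.Cg-Tg(Thy1-YFP)HJrs/J), in which the Thy1 promoter drives the fluorescent protein in a subset of projection neurons, and the labels call the cells pyramidal neurons without stating the gate. All mice carried the transgene. The labels sort them by a phenotype, Sus-T or Res-T, and by trauma, in a study whose title concerns fear extinction. Ages and the kind of trauma were not given in the labels. Columns existed for 26 libraries. The amygdala had 4 Sus-T with trauma, 4 Res-T with trauma, 2 Sus-T without trauma and 3 Res-T without trauma. The prefrontal cortex had 4 Sus-T with trauma, 3 Res-T with trauma, 2 Sus-T without trauma and 4 Res-T without trauma. Nothing said that each library came from its own animal, and 9 mice are named for the 13 amygdala libraries, so p-values measure only the spread between these libraries.

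Values were a signal in arbitrary units that the authors had normalized before deposit, so a gene can be compared between libraries of a region but not with another gene. Amygdala libraries totalled 3267967 to 4021272 and prefrontal libraries 2095138 to 2444486. Of 13 pyramidal neuron markers, 3 had an amygdala row (Camk2a, Camk2n1 and Nrgn) and 0 had a prefrontal row, whereas 20 and 14 of 20 oligodendrocyte markers had one. Amygdala Res-T without trauma stood apart from the other groups: the deposited amygdala values lacked 1 dimension of variation among libraries, and the weights in it were at most 0.000163 for these 3 libraries and from 0.00744 to 0.273 for the other 10. This group enters 3 of the 5 amygdala comparisons below.

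The ribosome reads messenger RNA on its small subunit and joins amino acids on its large subunit, and its proteins are made in matched amounts. Most of their transcripts begin with a 5′ terminal oligopyrimidine tract, a cytosine followed by a run of pyrimidines, through which the kinase mTORC1 and the RNA-binding protein Larp1 control their translation together. In neurons, ribosomal protein transcripts also occur in dendrites and axons.

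Start sites are shown for 8 members, chosen to show genes that passed a test and genes that passed none, each with and without the tract. Rpl38, Rpl18, Rps15a, Rps6 and Rpl37 rose in at least 1 comparison described below, and Rps9, Rps3 and Rpl7l1 passed no test. Each line gives the 30 bases around the RefSeq transcript start on the sense strand of GRCm38.p6, with 15 bases on each side. Capitals mark a C within 5 bases of the start that is followed by at least 4 bases, each C or T.
Rpl38, chr11:114668565-114668594, plus strand: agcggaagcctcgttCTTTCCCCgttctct
Rpl18, chr7:45718056-45718085, plus strand: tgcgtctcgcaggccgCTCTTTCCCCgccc
Rps15a, chr7:118116133-118116162, minus strand: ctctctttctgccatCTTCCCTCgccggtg
Rps6, chr4:86857353-86857382, minus strand: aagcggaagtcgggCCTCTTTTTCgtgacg
Rpl37, chr15:5116598-5116627, plus strand: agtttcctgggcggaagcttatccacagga
Rps9, chr7:3704026-3704055, plus strand: accgccttgtCTCTCTTTgtctcgggcctg
Rps3, chr7:99483695-99483724, minus strand: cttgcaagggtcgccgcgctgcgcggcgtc
Rpl7l1, chr17:46782642-46782671, minus strand: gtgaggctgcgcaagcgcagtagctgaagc
RefSeq start sites were at hand for 46 of the 64 amygdala members, and 23 of the 46 (50.0%) held the tract, against 23.8% of the 7716 amygdala genes with a start site. Requiring an A or G before the C gave 26.1% of members and 16.8% of genes. The search covered the sense strand only. A match describes these letters and is no measured start, and no match says only that the letters were not in this window.

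In both regions 1 Res-T group had the lowest summed level of ribosomal protein transcripts, but it was not the same group. In the amygdala of mice with trauma the members summed to 1.47%, 1.34%, 1.04% and 1.18% of the library total where the phenotype was Sus-T and to 0.828%, 1.19%, 1.27% and 0.819% where it was Res-T. Without trauma the sums were 1.25% and 1.37% for Sus-T, against 0.465%, 0.502% and 0.441% for Res-T. All 3 libraries of Res-T without trauma thus lay below the other 10. In the prefrontal cortex the 16 members summed, with trauma, to 0.395%, 0.391%, 0.440% and 0.361% for Sus-T, against 0.196%, 0.211% and 0.136% for Res-T. Without trauma they summed to 0.351% and 0.492% for Sus-T, against 0.339%, 0.459%, 0.291% and 0.282% for Res-T, so that the 3 Res-T libraries with trauma were the lowest of 13. The sums cover different numbers of genes in the 2 regions, whose tables were normalized separately, and were not compared between them.

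**Figure D1:**
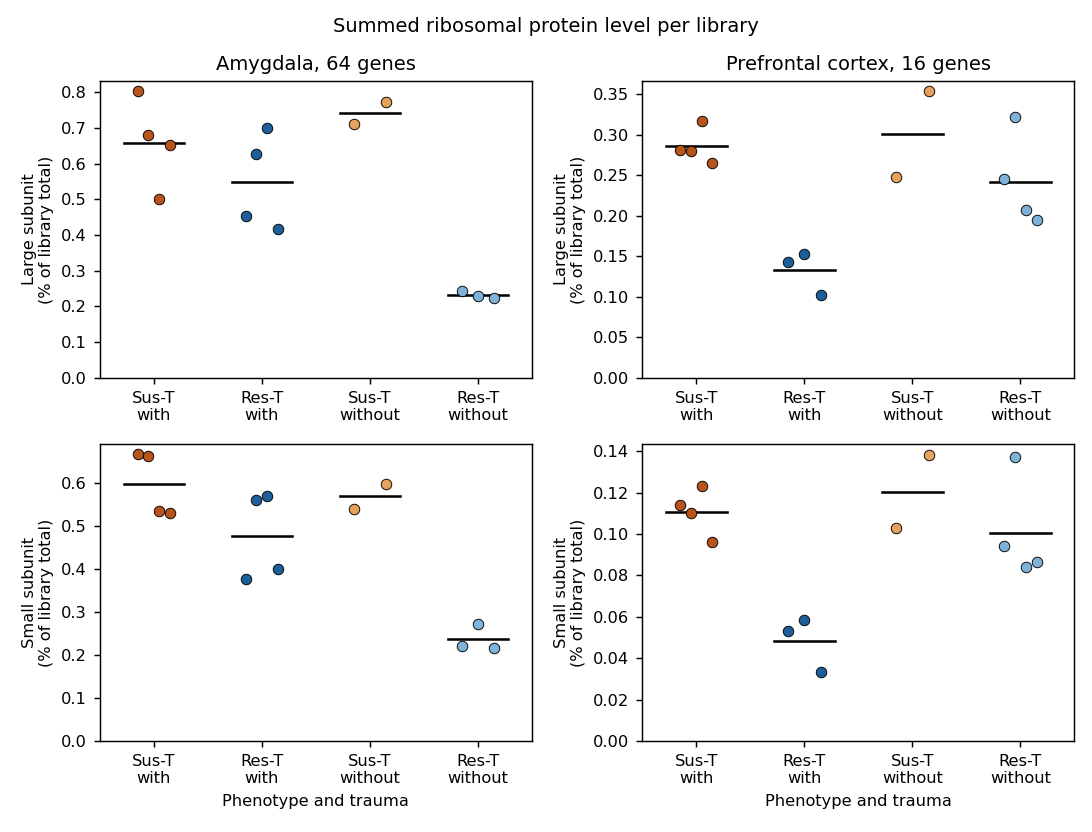
Summed deposited values of large subunit (top) and small subunit (bottom) genes as percent of the library total, per library, in the amygdala (left) and prefrontal cortex (right). Points are libraries and lines are group means. Amygdala Res-T without trauma and prefrontal Res-T with trauma were lowest for both subunits.

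Both subunits showed this. Large subunit genes of the amygdala without trauma averaged 0.741% ± 0.0424 for Sus-T (SD, n = 2), against 0.232% ± 0.0100 for Res-T (SD, n = 3). Small subunit genes averaged 0.570% ± 0.0410 for Sus-T and 0.238% ± 0.0316 for Res-T. With Rps3 left out, the small subunit averaged 0.491% ± 0.0325 for Sus-T, against 0.151% ± 0.0128 for Res-T. In the prefrontal cortex with trauma, large subunit genes averaged 0.286% ± 0.0221 in Sus-T (SD, n = 4) and 0.133% ± 0.0270 in Res-T (SD, n = 3), and small subunit genes 0.111% ± 0.0111 in Sus-T and 0.0483% ± 0.0132 in Res-T.

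Without trauma, the amygdala of Sus-T mice had higher levels of nearly every ribosomal protein gene than that of Res-T mice. Of the 64 genes 58 rose, 35 of 38 large and 23 of 26 small subunit genes, and 0 fell (limma, adjusted p under 0.05), where 12.4% of all genes rose and 15.0% fell. The median log2 change was 1.54 over the members (1.51 large, 1.57 small) and -0.03 over all genes, and 5.82% of all genes had a log2 change at or above the members' median. In 61 of 64 genes the lower Sus-T library exceeded the highest of Res-T, as in 27.7% of all genes. In bulk libraries, fewer cells of a type and less RNA per cell cannot be told apart.

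Short large subunit genes led the rise. Rpl38, known in mice for a part in the translation of Hox messages, measured 615 and 778 in Sus-T, against 171, 152 and 130 in Res-T (log2 change 2.19 ± 0.34 SE, limma adjusted p = 0.000189). Rpl37 measured 567 and 907 in Sus-T, against 187, 168 and 169 in Res-T (2.04 ± 0.32 SE, limma adjusted p = 0.000209), and Rpl30 503 and 554, against 139, 121 and 214 (1.78 ± 0.27 SE, limma adjusted p = 0.000147). In each the lower Sus-T library was more than 2-fold above the highest Res-T library. On the small subunit, Rps23, a protein of the decoding centre, measured 464 and 511 in Sus-T and 121, 148 and 153 in Res-T, a 3.47-fold difference (limma adjusted p = 0.000164). Rps7 measured 680 and 947 in Sus-T and 268, 235 and 202 in Res-T, a 3.42-fold difference (limma adjusted p = 0.00019).

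Transcripts of proteins with roles of their own moved with the rest. Rplp0 and Rplp2 form the stalk of the large subunit, which recruits elongation factors. Rplp0 measured 612 and 846 in Sus-T, against 402, 324 and 209 in Res-T (1.25 ± 0.37 SE, limma adjusted p = 0.0189), and Rplp2 246 and 357, against 120, 105 and 83.1 (1.54 ± 0.31 SE, limma adjusted p = 0.00138). Rpsa, also known as the laminin receptor precursor, measured 1073 and 1442 in Sus-T and 574, 477 and 400 in Res-T (1.38 ± 0.31 SE, limma adjusted p = 0.00324). Rps6, the substrate of S6 kinase, rose less: it measured 1186 and 1171 in Sus-T and 577, 607 and 546 in Res-T (1.03 ± 0.26 SE, limma adjusted p = 0.00756). Rpl10, which joins the large subunit late in its maturation, measured 1064 and 1321 in Sus-T and 364, 471 and 456 in Res-T (1.47 ± 0.24 SE, limma adjusted p = 0.000306). Rps19, mutated in human Diamond-Blackfan anemia, measured 333 and 410 in Sus-T and 144, 128 and 113 in Res-T (1.53 ± 0.33 SE, limma adjusted p = 0.00218). Rps27a, made as a fusion with ubiquitin, measured 696 and 829 in Sus-T and 416, 306 and 315 in Res-T (1.15 ± 0.26 SE, limma adjusted p = 0.00346).

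Paralogs differed in what they showed. Rpl22, the protein tagged in RiboTag mice, measured 325 and 319 in Sus-T and 141, 133 and 112 in Res-T (1.33 ± 0.25 SE, limma adjusted p = 0.000754), and its paralog Rpl22l1 166 and 233 in Sus-T and 109, 70.6 and 116 in Res-T (1.02 ± 0.35 SE, limma adjusted p = 0.0352). Rpl7 measured 926 and 1050 in Sus-T and 483, 529 and 502 in Res-T (0.97 ± 0.26 SE, limma adjusted p = 0.0106). Its paralog Rpl7l1 measured 66.2 and 142 in Sus-T and 118, 87.1 and 130 in Res-T, with overlapping groups (-0.18 ± 0.35 SE, limma adjusted p = 0.74). The difference between paralogs was not tested.

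The 6 members that did not pass the test fell into those near the threshold and those far from it. Rpl5, which binds 5S ribosomal RNA, measured 236 and 232 in Sus-T and 143, 85.5 and 141 in Res-T (0.96 ± 0.36 SE, limma adjusted p = 0.0566). Rps9 measured 486 and 502 in Sus-T and 321, 257 and 223 in Res-T (0.90 ± 0.35 SE, limma adjusted p = 0.0638). In both, as in Rps27l below, the groups did not overlap. Rps27l, a p53-induced paralog of Rps27, measured 63 and 70.1 in Sus-T and 58, 48.9 and 27.5 in Res-T (0.62 ± 0.43 SE, limma adjusted p = 0.3). Rpl12, a protein at the base of the stalk, measured 50 and 29.4 in Sus-T and 29.7, 29.7 and 31.3 in Res-T (0.34 ± 0.49 SE, limma adjusted p = 0.658). Rps3, which lies at the messenger RNA entry of the small subunit, measured 2385 and 2926 in Sus-T and 2122, 4986 and 2940 in Res-T (-0.25 ± 0.36 SE, limma adjusted p = 0.651). Its 3 Res-T libraries spanned more than 2-fold, so neither a rise nor a fall could be read from them.

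**Figure D2:**
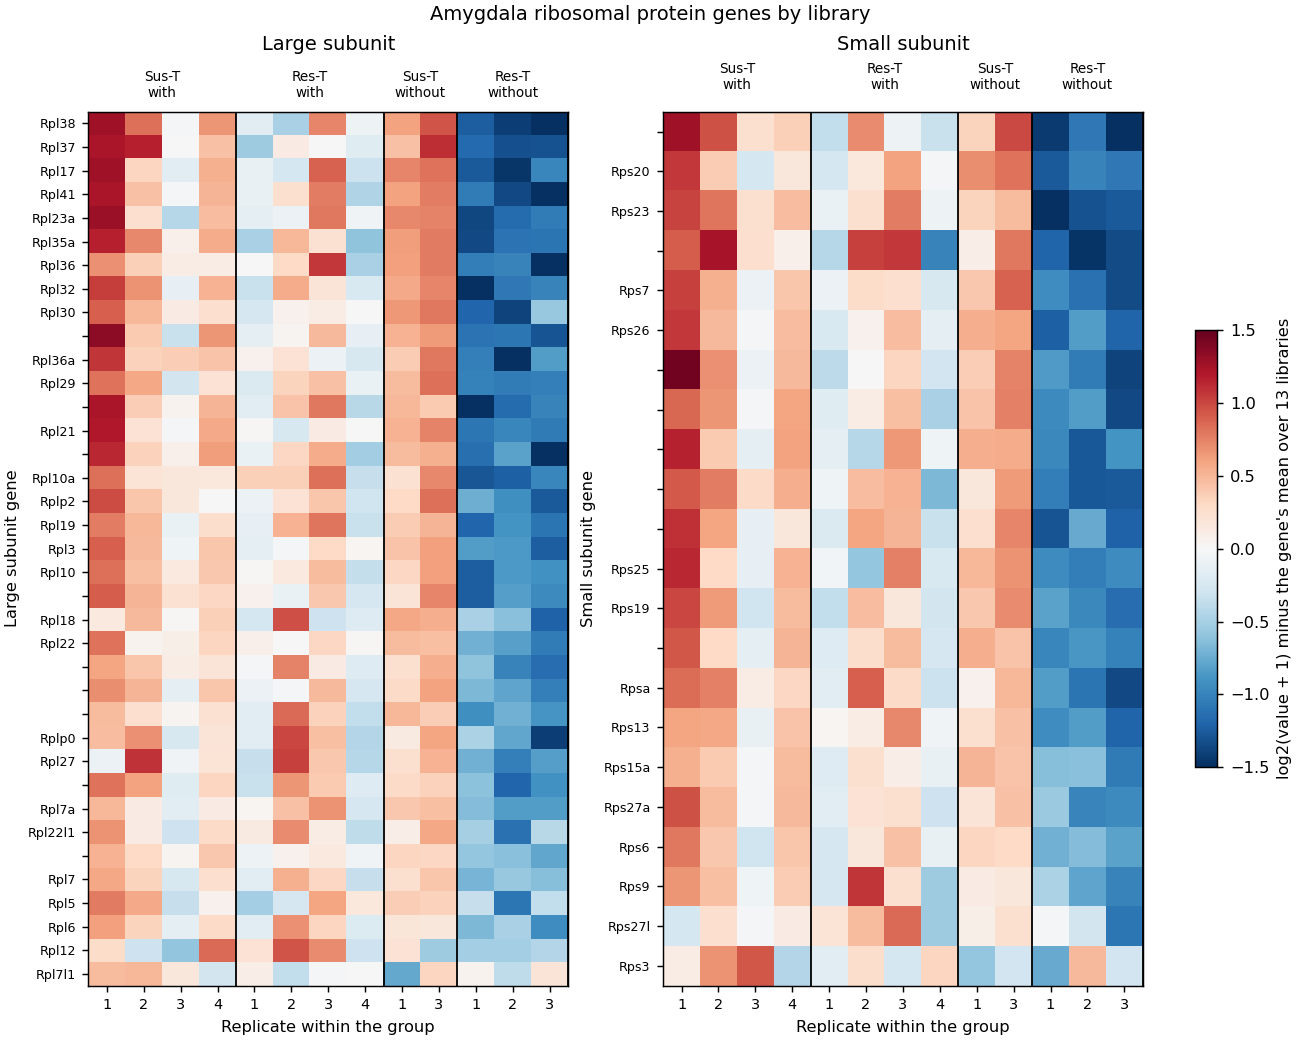
Deposited values of amygdala ribosomal protein genes, as log2(value + 1) minus each gene's mean over 13 libraries, by library (columns, grouped by phenotype and trauma) and gene (rows, ordered by the Sus-T minus Res-T change without trauma), large subunit left and small subunit right, with the genes described in the text named. The 3 columns of Res-T without trauma were low in nearly all rows, except rows such as Rps3 and Rpl7l1. Colours end at 1.5 in either direction, and values beyond take the end colour.

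Cell type markers moved with the members in this comparison, and their part in the result was not tested. Of 20 oligodendrocyte markers 18 were lower in Sus-T, where they summed to 1.99% to 2.98% of the total, against 6.36% to 7.46% in Res-T. All 3 measured pyramidal markers were higher (0.105% to 0.129% in Sus-T, 0.00494% to 0.00768% in Res-T), as were 6 of 13 astrocyte markers (1.12% to 2.11% and 0.361% to 0.554%) and all 3 measured microglia markers (0.0221% to 0.0273% and 0.00597% to 0.00934%). The lowest value of any of these markers in any amygdala library was 11.7. With the mean of the oligodendrocyte markers as a covariate, 2 members and 27 of all genes were called, while the members' median change was 2.51.

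With trauma, no ribosomal protein gene passed the test between Sus-T and Res-T amygdala, and neither did any other gene. At an unadjusted p under 0.05, 16 of 64 members (9 large, 7 small) and 11.6% of all genes differed. The change was above 0 in 61 of 64 members, with a median of 0.33 on the log2 scale against 0.01 over all genes. The smallest p belonged to Rpl37, which measured 978, 946, 421 and 568 in Sus-T and 290, 457, 419 and 369 in Res-T (0.86 ± 0.25 SE, limma adjusted p = 0.185). Rpl35a measured 689, 506, 321 and 449 in Sus-T and 217, 432, 359 and 201 in Res-T (0.72 ± 0.25 SE, limma adjusted p = 0.266). In both genes a Sus-T library fell within the range of Res-T. Rpl12 had the lowest change, with 52.2, 34.4, 28.2 and 78 in Sus-T and 49.8, 83.2, 70.7 and 34.3 in Res-T (-0.33 ± 0.38 SE, limma adjusted p = 0.794). Rps6 measured 1640, 1257, 769 and 1263 in Sus-T and 795, 1071, 1289 and 877 in Res-T (0.26 ± 0.20 SE), and Rpsa 1834, 1726, 1109 and 1265 in Sus-T and 916, 1901, 1245 and 819 in Res-T (0.33 ± 0.24 SE). The groups overlapped in both, and in 62 of the 64 members, since Rpl30 and Rpl36a alone had every Sus-T value above the Res-T values, as did 3.46% of all genes, and 0 members had every value below, as did 2.29%.

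Trauma in Res-T mice went with higher levels of ribosomal protein transcripts in the amygdala. With trauma 52 of 64 genes rose (31 large, 21 small) and 0 fell, where 3.3% of all genes rose and 2.88% fell, or 6.18% in either direction. An unadjusted p under 0.05 was reached by 60 members and by 23.7% of all genes. The median log2 change was 1.06 over the members and -0.05 over all genes. All 52 were among the 58 that differed between Sus-T and Res-T without trauma, but both comparisons use the same 3 Res-T libraries without trauma, so they are not independent. Rps23 changed most, with 343, 434, 625 and 348 with trauma and 121, 148 and 153 without (1.60 ± 0.23 SE, limma adjusted p = 0.00348). Rpl10a measured 360, 358, 497 and 220 with trauma and 114, 119 and 142 without (1.47 ± 0.25 SE, limma adjusted p = 0.00607). Rpl41, whose coding sequence of 75 bases is the shortest of the members, measured 735, 942, 1352 and 580 with trauma and 383, 310 and 271 without (1.43 ± 0.28 SE, limma adjusted p = 0.0105). Rps13 measured 311, 331, 502 and 294 with trauma and 159, 171 and 132 without (limma adjusted p = 0.01). In these 4 genes the groups did not overlap, as in 58 of 64 members and 9.68% of all genes.

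Of the members with roles of their own, Rplp0 (497, 1117, 766 and 412 with trauma, 402, 324 and 209 without), Rpsa (916, 1901, 1245 and 819, against 574, 477 and 400) and Rps6 (795, 1071, 1289 and 877, against 577, 607 and 546) also rose, with limma adjusted p of 0.0444, 0.0112 and 0.0431. The 12 members not called had log2 changes from -0.03 to 1.02. Among those closest were Rps25, Rpl7, Rps9, Rpl27, Rpl18 and Rpl22l1, with limma adjusted p from 0.054 to 0.0943. Replicate 2 of Res-T with trauma was the highest of its group for Rpl18 (158, 372, 153 and 166) and Rps9 (375, 939, 529 and 308). Rpl5 (128, 153, 275 and 203 with trauma, 143, 85.5 and 141 without), Rps27l (68.7, 82.6, 108 and 40.9, against 58, 48.9 and 27.5) and Rps3 (3168, 4299, 2985 and 4455, against 2122, 4986 and 2940) overlapped between groups, and so did Rpl7l1 (122, 87.5, 111 and 114, against 118, 87.1 and 130). Rpl12 did not overlap (49.8, 83.2, 70.7 and 34.3, against 29.7, 29.7 and 31.3), at a limma adjusted p of 0.207. Of the marker lists, 3 of 20 oligodendrocyte markers were lower (4.76% to 6.0% with trauma, 6.36% to 7.46% without) and 2 of 3 pyramidal markers higher (0.0197% to 0.0443%, against 0.00494% to 0.00768%). Their part was not tested. With the oligodendrocyte mean as a covariate, 50 members and 565 of all genes were called, against 610 of all genes in the main fit. The count of members was 13, 20 and 12 without Res-T without trauma replicates 1, 2 and 3, where 101, 142 and 163 of all genes were called. Without Res-T with trauma replicate 3 it was 31, where 322 of all genes were called. It was 32 with plain moderation of the variances, without trend and robust options, where 339 of all genes were called.

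In Sus-T mice 0 of 64 amygdala members differed with trauma, where 0.0304% of all genes did (0.0203% higher, 0.0101% lower), and 1 member, Rps3, had an unadjusted p under 0.05. The median log2 change was -0.08. Every library with trauma lay below those without for 1 member, Rpl18, as for 7.77% of all genes. Rps3 had both the smallest p and the highest change, with 3849, 5723, 6791 and 2632 with trauma and 2385 and 2926 without (0.75 ± 0.35 SE, limma adjusted p = 0.405). Rps20 had the lowest, with 1000, 624, 399 and 536 with trauma and 777 and 838 without (-0.42 ± 0.29 SE, limma adjusted p = 0.629). The members' trauma effect differed between the phenotypes: 23 of 64 genes (15 large, 8 small) had a lower effect in Sus-T than in Res-T and 0 a higher one, where 1.98% of all genes had a lower and 4.76% a higher effect (6.74% in all). An unadjusted p under 0.05 was reached by 56 members and by 23.7% of all genes. The median difference of the effects was -1.15 on the log2 scale. Rps20 differed most clearly (-1.64 ± 0.39 SE, limma adjusted p = 0.0185), followed by Rpl10a (-1.60 ± 0.38 SE, limma adjusted p = 0.0196). The largest difference was that of Rpl36 (-1.77 ± 0.45 SE, limma adjusted p = 0.0258), which with trauma measured 271, 215, 182 and 182 in Sus-T, against 167, 207, 351 and 119 in Res-T, and without trauma 258 and 288 in Sus-T, against 81.4, 83 and 58.7 in Res-T. Thus 3 of its 4 groups overlapped and only Res-T without trauma lay apart, below the other 10 libraries. Res-T without trauma lay below the other 10 libraries in 57 of 64 members and in 7.15% of all genes. The exceptions included Rpl5, Rpl7l1, Rpl12, Rps3, Rps9 and Rps27l. Overlap among the other groups was not counted. Of the 20 oligodendrocyte markers 18 had a higher trauma effect in Sus-T, of 3 pyramidal markers 1 had a lower one (median of the list -1.71), and their part was not tested.

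This count of 23 was the least stable. In the main fit 665 of all genes were called. It was 0 with the oligodendrocyte mean as a covariate, where 2 of all genes were called. With plain moderation of the variances it was 0, where 366 of all genes were called. With the missing dimension as a covariate it was 10, where 401 of all genes were called. The count was 5, 4 and 4 without Res-T without trauma replicates 1, 2 and 3, where 340, 340 and 379 of all genes were called. Without Res-T with trauma replicate 3 it was 7, where 465 of all genes were called. It was 39, 13, 9 and 9 without Sus-T with trauma replicates 1, 2, 3 and 4, where 781, 496, 490 and 533 of all genes were called. The median difference stayed between -1.30 and -1.01 when single libraries were left out, including either Sus-T library without trauma. Leaving out either of these left 1 library in its group, so no count is given for them here.

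**Figure D3:**
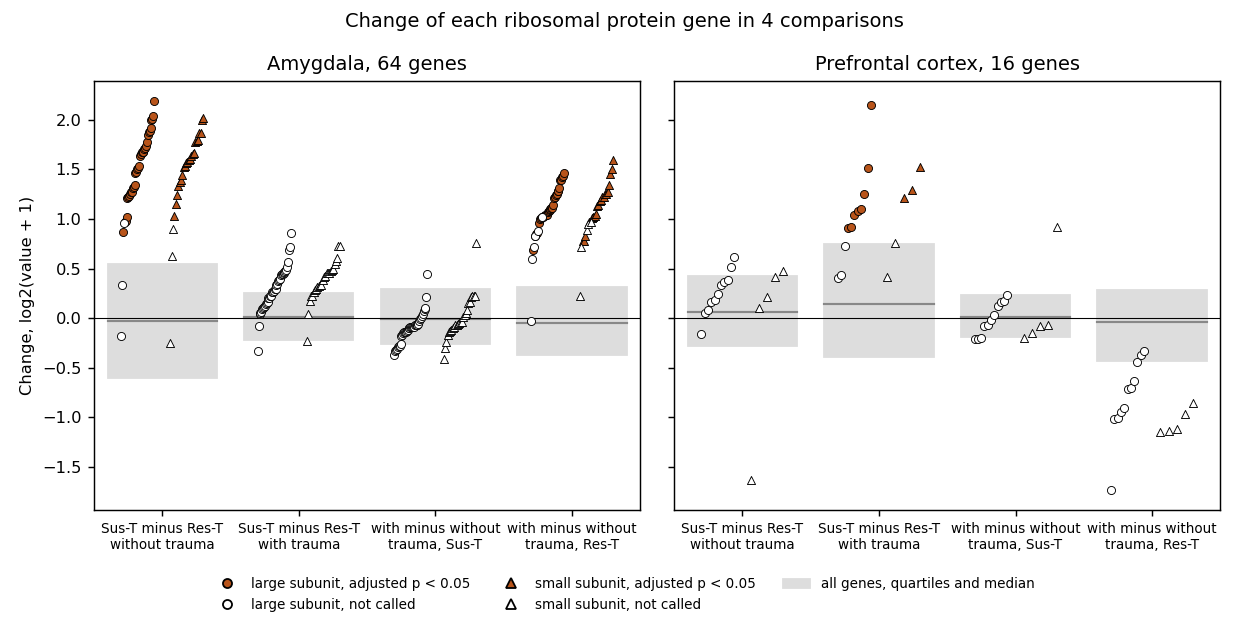
Change of log2(value + 1) of each ribosomal protein gene in 4 comparisons in the amygdala (left) and prefrontal cortex (right). Circles are large and triangles small subunit genes, filled where the limma adjusted p was under 0.05, and grey bars span the quartiles of all genes with their median. Filled symbols occur in the amygdala for Sus-T minus Res-T without trauma and for trauma in Res-T, and in the prefrontal cortex for Sus-T minus Res-T with trauma.

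In the prefrontal cortex the phenotypes differed with trauma. There 11 of 16 ribosomal protein genes were higher in Sus-T than in Res-T (8 of 11 large, 3 of 5 small) and 0 were lower, where 14.0% of all genes were higher and 8.93% lower. An unadjusted p under 0.05 was reached by 13 members and by 36.0% of all genes. The median log2 change was 1.06 over the members and 0.15 over all genes, and 16.6% of all genes had a log2 change at or above the members' median. In 12 of 16 members the lowest Sus-T library exceeded the highest of Res-T, as in 24.4% of all genes.

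Rpl18 changed most, with 312, 213, 257 and 189 in Sus-T and 60.2, 53.4 and 46.4 in Res-T (2.15 ± 0.40 SE, 4.43-fold, limma adjusted p = 0.00274). Rps15a, a small subunit protein, measured 656, 467, 460 and 303 in Sus-T and 190, 130 and 159 in Res-T (1.52 ± 0.25 SE, limma adjusted p = 0.00165). Rpl10 measured 922, 1370, 1110 and 1145 in Sus-T and 589, 577 and 443 in Res-T (1.08 ± 0.20 SE, limma adjusted p = 0.0027). In all 3 the lowest Sus-T library was above the highest of Res-T. Rps13 measured 447, 366, 493 and 388 in Sus-T and 187, 210 and 128 in Res-T (limma adjusted p = 0.00306), and Rps6 844, 1053, 1071 and 1085 in Sus-T and 499, 635 and 258 in Res-T (1.21 ± 0.26 SE, limma adjusted p = 0.00571). Rpl6 measured 762, 660, 824 and 698 in Sus-T and 374, 511 and 238 in Res-T (limma adjusted p = 0.00656). The 5S-binding Rpl5, near the threshold in the amygdala, measured 253, 180, 287 and 284 in Sus-T and 147, 112 and 134 in Res-T (0.92 ± 0.25 SE, limma adjusted p = 0.0148). Rpl22 measured 294, 322, 362 and 353 in Sus-T and 127, 178 and 68.2 in Res-T (1.51 ± 0.37 SE, limma adjusted p = 0.00923).

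The paralogs Rpl22l1, Rpl7l1 and Rps27l were among the 5 not called. Rpl22l1 measured 137, 162, 213 and 159 in Sus-T and 118, 171 and 91.4 in Res-T (0.43 ± 0.36 SE, limma adjusted p = 0.416). Rpl7l1 measured 77.7, 135, 101 and 94.4 in Sus-T and 76.7, 98.8 and 55.8 in Res-T (0.41 ± 0.33 SE, limma adjusted p = 0.39), the lowest change. Rps27l was low throughout, with 9.01, 27.4, 43.8 and 31.1 in Sus-T and 19.1, 18 and 16.8 in Res-T (0.42 ± 0.84 SE, limma adjusted p = 0.748). Groups overlapped in all 3. The others were Rpl7, with 611, 780, 861 and 1098 in Sus-T and 562, 609 and 356 in Res-T (limma adjusted p = 0.0703), and Rps9, with 429, 435, 545 and 523 in Sus-T and 304, 432 and 174 in Res-T (limma adjusted p = 0.0648). Oligodendrocyte markers were lower in Sus-T in 10 of 14 cases, summing to 2.75% to 4.58% in Sus-T and 5.51% to 7.64% in Res-T, and no astrocyte marker of 8 was called (0.141% to 0.541% and 0.130% to 0.532%). Their part was not tested. With the oligodendrocyte mean as a covariate 0 members and 0 of all genes were called, and the members' median change was 0.91. The count of 11 ran from 9 to 12 when single libraries were left out.

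Without trauma, 0 of 16 prefrontal members passed between Sus-T and Res-T, and 0 of all genes did. An unadjusted p under 0.05 was reached by 0 members and by 10.4% of all genes. The median change was 0.23 on the log2 scale. Sus-T lay wholly above Res-T in Rpl5, Rpl6 and Rps15a, as in 8.16% of all genes, and wholly below in 0 members, as in 6.74%. Rpl10 measured 1184 and 1436 in Sus-T and 978, 1198, 1031 and 815 in Res-T (0.39 ± 0.23 SE, limma adjusted p = 0.562), and Rps27l 5.22 and 27.7 in Sus-T and 71.3, 151, 7.09 and 32.6 in Res-T (-1.64 ± 0.95 SE, limma adjusted p = 0.565). Both overlapped. Rpl18 had the highest change, with 297 and 255 in Sus-T and 175, 445, 90.3 and 144 in Res-T (0.62 ± 0.45 SE).

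Between prefrontal Res-T mice with and without trauma, changes were below 0 in all 16 members, yet 0 passed the test. The members' median was -0.92 on the log2 scale, against -0.04 over all genes. The smallest limma adjusted p was 0.121. An unadjusted p under 0.05 was reached by 12 of 16 members and by 14.8% of all genes. In 8 of 16 members all 3 libraries with trauma lay below all 4 without, as in 7.88% of all genes, and in 0 they lay above, as in 5.2%. Rpl10 measured 589, 577 and 443 with trauma and 978, 1198, 1031 and 815 without (-0.90 ± 0.20 SE), and Rps15a 190, 130 and 159 with trauma and 336, 391, 329 and 319 without (-1.12 ± 0.25 SE). Rpl18 measured 60.2, 53.4 and 46.4 with trauma and 175, 445, 90.3 and 144 without (-1.73 ± 0.40 SE). These 3 did not overlap. Rps6 measured 499, 635 and 258 with trauma and 925, 1320, 778 and 914 without (-1.15 ± 0.26 SE), again with no overlap. Rpl22l1 changed least, with 118, 171 and 91.4 with trauma and 144, 305, 85.9 and 149 without (-0.33 ± 0.36 SE). Without Res-T without trauma replicate 4, 7 members and 588 of all genes were called. In that library the oligodendrocyte markers summed to 8.93%, against 3.34% to 3.99% in the rest of its group, and their part was not tested.

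In prefrontal Sus-T mice 0 of 16 members and 0 of all 6080 genes differed with trauma. An unadjusted p under 0.05 was reached by 0 members and by 1.5% of all genes, and the median change over the members was -0.07 on the log2 scale. Rps27l was highest (9.01, 27.4, 43.8 and 31.1 with trauma, 5.22 and 27.7 without) and Rpl10 lowest (922, 1370, 1110 and 1145 with trauma, 1184 and 1436 without), both overlapping between groups. The difference of the trauma effects was called for 0 of 16 members and 0 of all genes. It was above 0 in all 16, with a median of 0.85, and had an unadjusted p under 0.05 in 8 of 16 and in 6.1% of all genes. Rps15a (1.05 ± 0.37 SE) and Rpl18 (1.53 ± 0.60 SE) had the smallest p, at a limma adjusted p of 0.774 each.

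The comparison with most calls in each region shared no library with the other, and the same 16 genes can be set side by side in them. Of these, 10 were called both in Sus-T minus Res-T amygdala without trauma and in Sus-T minus Res-T prefrontal cortex with trauma. Rpl7 and Rpl22l1 were called in the amygdala alone, Rpl5 in the cortex alone, and Rpl7l1, Rps9 and Rps27l in neither. Spearman's rho of the 16 log2 changes was 0.73, across genes measured in the same libraries. Of all genes, 12.4% were called higher in the amygdala comparison and 14.0% in the prefrontal one. The share of all genes called in both, and their rho, were not worked out, so the agreement between regions has no background to be set against.

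The spread within amygdala groups of 2 to 4 libraries can be given only roughly. The median coefficient of variation over members was 28.3% for Sus-T and 30.1% for Res-T with trauma (n = 4 each), against 23.4% and 26.2% over all genes. Without trauma it was 8.96% for Sus-T (n = 2) and 14.6% for Res-T (n = 3), against 18.7% and 16.4% over all genes. Sus-T with trauma replicate 1 was the highest library of its group for most members, as with Rpl41 (1867, 1078, 783 and 1136) and Rps20 (1000, 624, 399 and 536), and replicate 3 often the lowest.

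Members with shorter coding sequences had larger changes in the amygdala. Between Sus-T and Res-T amygdala without trauma, Spearman's rho of the log2 change with coding length was -0.53 over 64 members and -0.12 over 9669 genes. The 21 members with the shortest coding sequences, from 75 to 405 bases, had a median log2 change of 1.71, and the 21 with the longest, from 582 to 1257 bases, 1.27. For trauma in Res-T rho was -0.38 over members and -0.23 over genes, with medians of 1.11 and 1.0. In prefrontal Sus-T minus Res-T with trauma rho was -0.07 over 16 members, where the short Rps27l (252 bases) changed little, and -0.21 over 5978 genes. The 5 shortest members there had a median log2 change of 1.29 and the 5 longest 0.92. For trauma in prefrontal Res-T, where changes were below 0, rho was 0.37 over members and 0.19 over genes, with medians of -1.02 and -0.71. The points share libraries and normalization, and the values are given as a description.

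**Figure D4:**
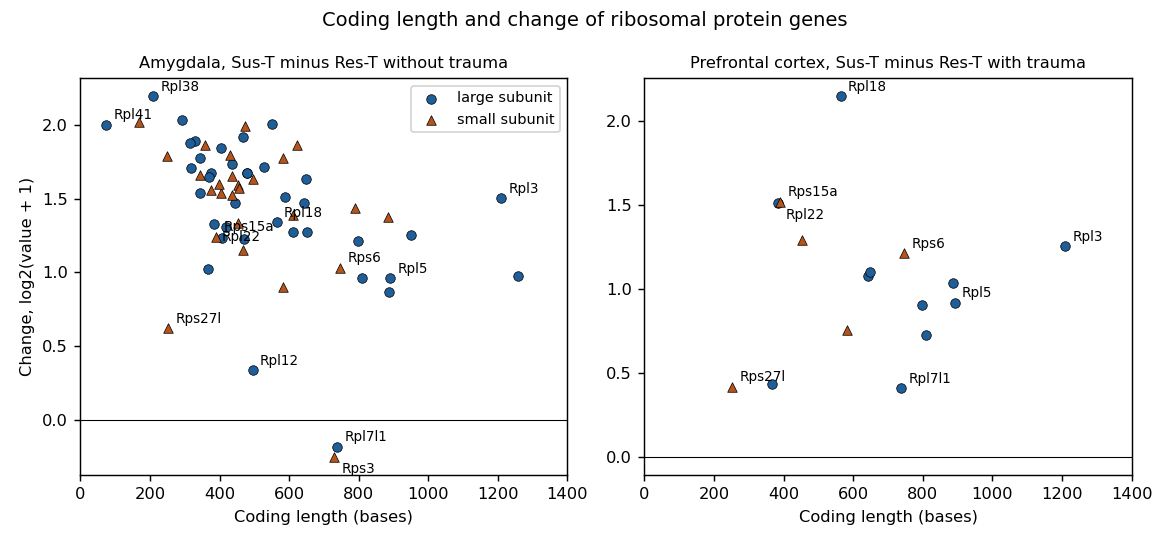
Change of log2(value + 1) against coding length in bases for ribosomal protein genes, in the amygdala for Sus-T minus Res-T without trauma (left) and in the prefrontal cortex for Sus-T minus Res-T with trauma (right). Circles are large and triangles small subunit genes, and some genes are named. In the amygdala short genes such as Rpl38 and Rpl41 lie high. Rps3, Rpl7l1, Rpl12 and Rps27l, which is also short, lie below the rest.

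Small nucleolar RNA genes lie within 23 of the 64 amygdala members on the same strand, spliced out of their introns. Hosts and other members had similar medians: between Sus-T and Res-T without trauma the median log2 change was 1.5 over 23 hosts, 20 of them called, and 1.56 over 41 others, 38 of them called. For trauma in Res-T the medians were 1.07 over hosts and 1.05 over the others. Members with the pyrimidine tract shown above also changed about as much as those without: the medians were 1.51 over 23 genes with it and 1.38 over 23 without in Sus-T minus Res-T, and 1.03 and 1.04 for trauma in Res-T. None of these differences was tested.

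Other genes of the ribosome and of translation went with the members, while genes that build ribosomes mostly did not. Ribosomal genes outside the naming rule rose in 6 of 6 cases in Sus-T minus Res-T amygdala without trauma (median 1.35). Among them, Rps27rt averaged 397.2 ± 94.1 in Sus-T and 99.94 ± 25.3 in Res-T (SD, n = 2 and 3). Of 15 non-ribosomal transcripts known to carry the 5′ tract 8 rose and 0 fell (median 0.92). The elongation factors among them included Eef2, at 4958 ± 70.0 in Sus-T and 2354 ± 495 in Res-T, and Eef1g, at 677.3 ± 11.1 in Sus-T and 246.6 ± 46.2 in Res-T, and the initiation factor subunit Eif3f averaged 515.5 ± 74.9 in Sus-T and 163.4 ± 8.81 in Res-T. For trauma in Res-T the same lists rose in 6 of 6 and 5 of 15 cases, where 3.3% of all genes rose. In prefrontal Sus-T minus Res-T with trauma they were higher in 2 of 2 and 5 of 9 cases, where 14.0% of all genes were.

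Ribosome assembly factors had 1 of 43 higher (Nol6) and 2 lower (Nvl and Riok1) in Sus-T minus Res-T amygdala without trauma, with a median of 0.03, and 0 of 43 called for trauma in Res-T. RNA polymerase I, which transcribes ribosomal RNA, had 0 of 12 higher and 1 lower, its subunit Polr1a at 173.5 ± 0.552 in Sus-T and 335.2 ± 43.6 in Res-T. Of 23 genes of mTORC1 and tract control 3 rose, Eif4ebp2, Rptor and Larp1, and 0 fell. Larp1 averaged 720.0 ± 22.1 in Sus-T and 463.8 ± 27.1 in Res-T. Ribosome rescue and quality control had 1 of 15 higher (Edf1) and 2 lower (Rchy1 and Nemf). Mitochondrial ribosomal proteins, made for the separate ribosome of that organelle, had 1 of 66 higher and 1 lower, with a median of 0.29. All of these are to be read against 12.4% of all genes higher and 15.0% lower.

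In prefrontal Sus-T minus Res-T with trauma, mitochondrial ribosomal proteins had 8 of 49 higher and 1 lower, with a median of 0.85, and the mTORC1 list 5 of 18 higher, among them Deptor, Akt1s1 and Larp1, and 1 lower, the S6 kinase gene Rps6kb1. Rps6kb1 averaged 166.5 ± 47.6 in Sus-T and 297.0 ± 30.4 in Res-T (SD, n = 4 and 3). Assembly factors had 2 of 28 higher (Rrp12 and Utp4) and 2 lower (Rrs1 and Riok3), polymerase I genes 1 of 5 higher (Polr1d) and 1 lower (Taf1d), and rescue genes 1 of 10 higher (Tcf25) and 1 lower (Nemf), where 14.0% of all genes were higher and 8.93% lower.

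**Figure D5:**
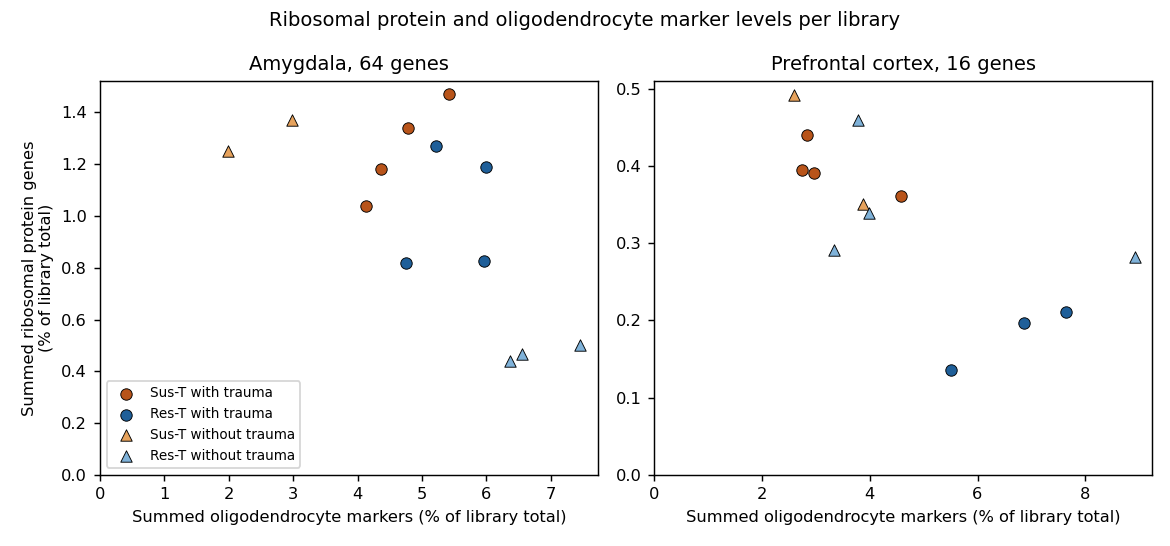
Summed ribosomal protein genes against summed oligodendrocyte markers, both as percent of the library total, per library in the amygdala (left) and prefrontal cortex (right), by group. Amygdala Res-T without trauma (0.441% to 0.502% and 6.36% to 7.46%) and prefrontal Res-T with trauma (0.136% to 0.211% and 5.51% to 7.64%) lie at the lower right.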

How the data were processed

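Cells sorted as pyramidal neurons, per the labels, were profiled by ultra-low-input RNA sequencing with removal of ribosomal RNA. Per the submitters' processing notes, bcl2fastq 2.20 and Salmon 1.2 were used on GRCm38.p6. The protocol is worded for the amygdala on prefrontal samples too. The authors deposited normalized values, whose scaling is not given in the sources used here, and these were handled as signal. They held no zeros. Centred by gene on the scale log2(value - 1), they lacked 1 dimension among amygdala and 2 among prefrontal libraries, so 9 residual degrees of freedom may be too many and p-values too low. No counts or depths were given, so counting error is not stated. The submitters had removed 3 of 29 libraries, which had no columns.

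Identifiers were matched to GENCODE M21 on GRCm38.p6 (9871 of 9872 in the amygdala, all 6080 in the cortex). A count test was foreseen for counts. As the unit was a signal, limma 3.58.1 in R 4.3.3 was fitted to log2(value + 1) of all genes of a region, with 4 groups in 1 model and moderation with trend and robust options. A mean of at least 1 was required, which removed 0 genes. P-values were adjusted by Benjamini and Hochberg over all genes of each of 5 comparisons, with a threshold of 0.05. Log2 changes understate those of low values. The fit was also run on simulated libraries with independent noise per gene and changes set in Sus-T without trauma alone, with the outcome not given here. These held no variation shared between genes and no missing dimension, so the run cannot speak to either. Coding length was that of the longest principal transcript.

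Members, lists and named genes (leading members by p, extremes, members not called, and a set picked by role) were chosen with earlier results of these data known. Some of them are counted but not reported here by name. Many ribosomal protein genes have near-identical processed pseudogenes, among which a quantifier can divide reads. In each region 2 pseudogene symbols had a row, and adding them moved each group's summed level by less than its SD.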

Additional observations from a re-analysis of the deposited data

Results flagged for a closer look

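In 172 checks of groups of 4 libraries, 6 found a library apart from the rest, where chance flags about 1 in 20. They were the amygdala Res-T with trauma libraries of replicate 3 for Rpl17 (804) and Rpl23a (1212) and of replicate 2 for Rpl18 (372), the Sus-T with trauma library of replicate 1 for Rpl10a (495) and Rpl36a (398), and the prefrontal Sus-T with trauma library of replicate 1 for Rps6 (844). The prefrontal value was the lowest of its group and the others the highest.

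The trauma effect in the amygdala differed between Sus-T and Res-T for 23 members (limma, adjusted p under 0.05), where 6.74% of all genes differed. Among large subunit members the log2 differences of the effects, Sus-T minus Res-T, were -1.77 for Rpl36, -1.65 for Rpl23a, -1.60 for Rpl10a, -1.57 for Rpl41, -1.51 for Rpl38, -1.46 for Rpl29, -1.37 for Rpl19, -1.37 for Rpl32, -1.32 for Rpl30, -1.29 for Rpl7a, -1.16 for Rpl21, -1.11 for Rpl3, -1.10 for Rpl22 and -1.08 for Rpl10. Among small subunit members they were -1.64 for Rps20, -1.38 for Rps23, -1.35 for Rps7, -1.20 for Rps26 and -1.16 for Rps13.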

How the results depend on the processing

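Read depth was not given, and the group of 2 Sus-T libraries without trauma limits precision in both regions. Leaving out libraries aside, the count of called members stayed within 1.5 times under 31 of 39 alternatives for the 4 comparisons with calls, and the other 6 comparisons stayed at 0 throughout. For the difference of the trauma effects in the amygdala, 23 members and 665 of all genes were called. The counts were 43 and 737 with equal library totals, 0 and 366 without trend and robust options, and 14 and 463 with the replicate block. They were 0 and 2 with the oligodendrocyte mean as a covariate. With the missing dimension as a covariate, added after seeing the data, they were 10 and 401. For trauma in amygdala Res-T (52 members, 610 of all genes) the counts were 32 and 339 without trend and robust options. With the oligodendrocyte covariate they were 2 and 27 in amygdala Sus-T minus Res-T without trauma (58 and 2706). In prefrontal Sus-T minus Res-T with trauma (11 and 1397) that covariate left 0 and 0. The cause was not tested. The replicate block moved no other count by over 1.5 times. Deviations of same-numbered libraries from their group means had correlations between -0.446 and 0.159 in the amygdala, and between -0.395 and 0.346 in the cortex. With groups this small, such correlations cannot tell whether the replicate numbers pair the libraries. Equal totals moved the median of all amygdala genes to 0.17 in Sus-T minus Res-T without trauma and to -0.21 in the difference of the effects; relative to it the members' medians were 1.56 and -1.18.

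Leaving out single libraries, counts ran from 0 to 39 for the amygdala difference of effects, from 12 to 55 for trauma in amygdala Res-T, from 51 to 56 for amygdala Sus-T minus Res-T without trauma, from 9 to 12 for prefrontal Sus-T minus Res-T with trauma and from 0 to 7 for trauma in prefrontal Res-T. Where this left 1 library in a group, it was assumed to vary like the others.

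Some members without a call changed sign. In amygdala Sus-T minus Res-T without trauma these were Rps3 (0.20 with quantile normalization, 0.95 with the oligodendrocyte covariate), Rpl7l1 (0.011 with equal totals, 1.31 with the covariate) and Rpl12 (-0.32 with the covariate). For trauma in amygdala Res-T, Rpl7l1 was at 0.11 with equal totals, 0.035 with the replicate block and 0.40 with the covariate. In the amygdala difference of effects the covariate gave -0.83 for Rpl7l1 and -0.52 for Rps3. In the cortex, Rps27l in Sus-T minus Res-T with trauma was at -0.16 with quantile normalization and -0.003 with the covariate, and Rpl22l1 at -0.033 in the difference of effects with the replicate block.

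With single libraries left out, in amygdala Sus-T minus Res-T without trauma Rps3 ran from -0.54 to 0.081, Rpl7l1 from -0.73 to 0.36 and Rpl12 from -0.037 to 0.71. For trauma in amygdala Res-T, Rpl7l1 ran from -0.20 to 0.086 and Rps3 from -0.062 to 0.55, and in the difference of effects Rpl7l1 from -0.072 to 1.02. In the cortex Rpl22l1 ran from -0.08 to 0.53 in the difference of effects and Rps27l from -0.18 to 2.02 for trauma in Sus-T.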
